A study of Saccharomyces cerevisiae with 16 samples.

Results

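Total mRNA of yeast spheroplasts that received rancRNA_18 was compared with total mRNA of spheroplasts that received rancRNA_18-M2. The comparison used 5 of the 16 deposited libraries, chosen by their labels alone: 2 with rancRNA_18 and 3 with rancRNA_18-M2. All groups came from Saccharomyces cerevisiae trm10∆, a strain without TRM10, and all were electroporated, including the 3 total mRNA libraries that received no RNA and are set beside the comparison here. Spheroplasts are cells freed of their wall. After recovery the cells were lysed, total RNA was extracted with phenol, and poly(A) RNA was sequenced. The labels do not give the RNA dose, the recovery time or how rancRNA_18-M2 differs from rancRNA_18. They also do not say whether replicates came from separate cultures. The fit behind the test held 14 libraries, since polysome-associated mRNA with no RNA and with rancRNA_18-M2 was fitted together with these. Its p-values therefore measure only the spread between those 14 libraries, which may be technical.

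rancRNA_18 is a short noncoding RNA cut from the mRNA of TRM10, the gene of a tRNA methyltransferase. It belongs to the ribosome-associated noncoding RNAs, which bind the ribosome itself and are known in yeast for lowering global protein synthesis under stress. A deletion of TRM10 removes the cell's own source of this RNA, so the electroporated molecule can be studied without it. Total mRNA shows the abundance of transcripts, before any question of how many ribosomes they carry.

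The rancRNA_18 libraries held 20066383 and 17268750 reads in genes, and the rancRNA_18-M2 libraries held 20223135, 21962246 and 16960806. Between 6425 and 6482 genes had reads in each. TRM10 had 0 and 1 reads with rancRNA_18, 1, 0 and 2 reads with rancRNA_18-M2, and 0, 3 and 0 reads with no RNA. These counts are at or under 3 reads, which correspond to 0.137 to 0.177 CPM in the 5 libraries, CPM being a read count scaled for library size. The strain label therefore held in each library, and TRM10 reads were no more frequent with the electroporated RNAs than with no RNA. Only poly(A) RNA was sequenced, so these counts cannot show whether the short electroporated RNA was taken up or kept. No spike-in is named, so a level is always relative to the rest of its library, and whether cells held more or less mRNA in all cannot be told.

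Libraries resembled each other by replicate number more than by the RNA they received. Over 4400 genes with a mean of at least 20 CPM in the 5 libraries, the SD of the log2 difference between rancRNA_18 and rancRNA_18-M2 was 0.166 in replicate 1 and 0.225 in replicate 2. Replicates 1 and 2 of rancRNA_18 differed from each other with an SD of 0.336, and the 3 rancRNA_18-M2 libraries with SDs of 0.320 to 0.482. In replicate 1, 0.136% of these genes differed by more than 1.5-fold between the 2 RNAs, and in replicate 2 it was 1.34%. Between the rancRNA_18 replicates it was 6.86%. Replicate 3 of rancRNA_18-M2 had no rancRNA_18 partner. Its closest library was replicate 3 with no RNA, with an SD of 0.119. The replicate number was a block in the test by the design of the comparison, and it was kept.

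**Figure D1:**
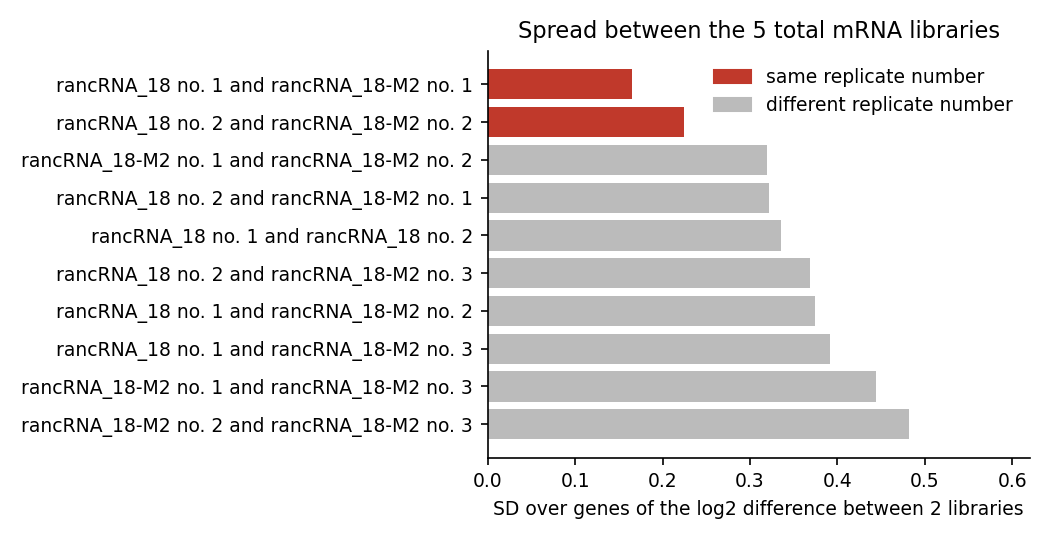
The bars give, for each pair of the 5 total mRNA libraries, the SD over 4400 genes of the log2 difference in CPM, in red for pairs with the same replicate number and in grey for pairs with different numbers. The 2 same-number pairs, at 0.166 and 0.225, are shorter than every grey bar, of which the shortest is 0.320.

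No gene differed between rancRNA_18 and rancRNA_18-M2 in total mRNA at an adjusted p under 0.05 in edgeR's quasi-likelihood test. A total of 6016 genes were tested, 0% of them called, and the smallest adjusted p was 0.709. Before adjustment, 412 genes, or 6.85% of those tested, had a p under 0.05. Of these, 187 (3.11%) were above 0 and 225 (3.74%) below 0 on the log2 scale of rancRNA_18 minus rancRNA_18-M2. The 412 became 163 without replicate 1 of rancRNA_18, 266 without its replicate 2, 216 without replicate 2 of rancRNA_18-M2, and 4 without the replicate block. DESeq2 with the same block called 1 gene, INH1, and edgeR on the 5 libraries alone, with 1 residual degree of freedom, called 36.

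The intervals show how large a difference could have gone unseen. Among the 4400 genes with at least 20 CPM, the median standard error (SE) of a log2 fold change was 0.13, and the fitted values ran from -0.61 to 0.55. None (0) of these fitted values passed 2-fold, and 2 passed 1.5-fold, those of INH1 and MIC10. For 4397 of them, 99.9%, the 95% confidence interval lay within 2-fold in either direction, and for 4035, 91.7%, within 1.5-fold. The 3 genes with wider intervals are named because of those intervals. DDR48, a general stress gene, had 135 and 103 CPM with rancRNA_18, 95.1, 89.8 and 119 CPM with rancRNA_18-M2, and 29.7, 101 and 102 CPM with no RNA. Its log2 fold change was 0.55 with an interval of -0.53 to 1.63, and the library apart from the rest was replicate 1 with no RNA, outside the compared groups. The other two were SRG1, a noncoding transcript that runs into the SER3 promoter, at -0.46 (-1.12 to 0.20), and MTC7 at -0.48 (-1.19 to 0.23).

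The differences found in the 2 replicate numbers can be set beside each other, since they share no library. Over all 6016 genes the difference in replicate 1 correlated with that in replicate 2 with a Pearson r of 0.212 and a Spearman rho of 0.275. Over the 4400 genes with at least 20 CPM, r was 0.384 and rho 0.384, and 2800 genes, 63.6%, had the same sign in both. These correlations run across genes, which are not independent replicates, and they have no p.

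**Figure D2:**
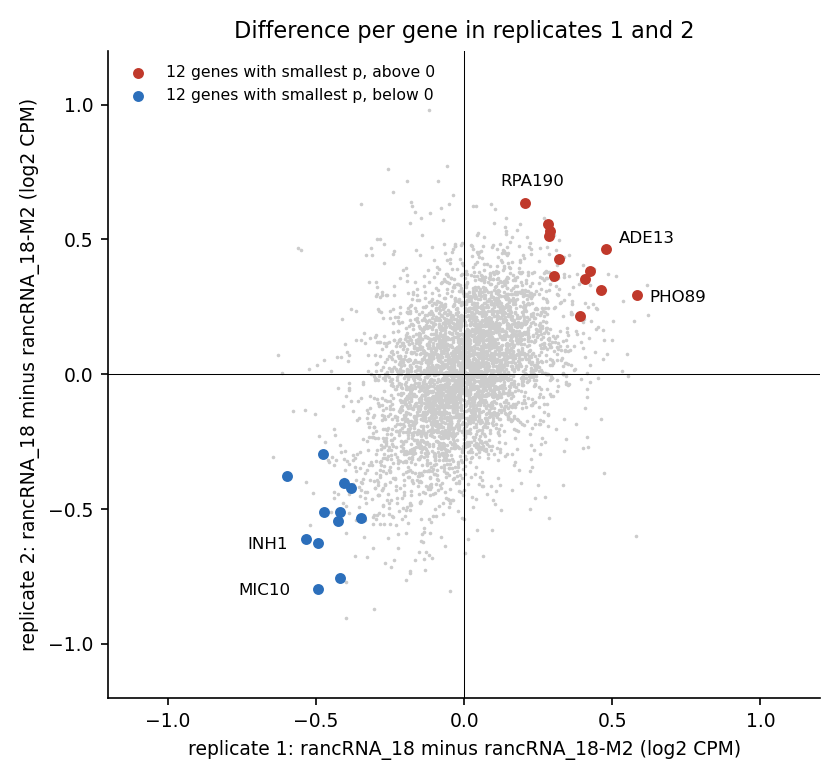
Each grey point is 1 of 4400 genes, placed by its difference in log2 CPM (rancRNA_18 minus rancRNA_18-M2) in replicate 1 on the horizontal axis and in replicate 2 on the vertical axis. Red and blue mark the 12 genes with the smallest p above and below 0 among those with the same sign in both, a condition that places them in these quadrants, and the cloud as a whole has an r of 0.384.

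The 12 genes below 0 with the smallest p begin with INH1. They were taken from genes of at least 20 CPM with the same sign in replicates 1 and 2. Being lower than rancRNA_18-M2 in both replicates was thus fixed by the choice. INH1, which encodes the inhibitor of ATP hydrolysis by the mitochondrial ATP synthase, had 259 and 307 CPM with rancRNA_18, 364, 474 and 241 CPM with rancRNA_18-M2, and 437, 389 and 246 CPM with no RNA. In replicates 1 and 2 the rancRNA_18 library was the lowest of its number, but replicate 3 was lower still in both other groups, so the groups overlapped. The log2 fold change of INH1 was -0.59 (SE 0.13, 95% interval -0.86 to -0.31) with an unadjusted p of 0.00031 and an adjusted p of 0.709 in edgeR's quasi-likelihood test. In DESeq2 it was -0.60 with an adjusted p of 0.0089.

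MIC10 encodes a core subunit of the complex that shapes the junctions of the inner mitochondrial membrane. It had 307 and 307 CPM with rancRNA_18, 432, 533 and 183 CPM with rancRNA_18-M2, and 426, 339 and 166 CPM with no RNA. The log2 fold change was -0.61 (SE 0.16), the furthest from 0 among genes with at least 20 CPM. COX17, the chaperone that brings copper to cytochrome c oxidase, had 57.8 and 74.7 CPM with rancRNA_18 and 77.4, 126 and 52.3 CPM with rancRNA_18-M2, a log2 fold change of -0.57 (SE 0.15). In both genes the rancRNA_18 value was below the rancRNA_18-M2 value of its own number, as the choice of genes required. Replicate 3 of rancRNA_18-M2 was the lowest of the 5 compared libraries. COX23, another assembly factor of that oxidase, was at -0.47, and BOL3, a factor for iron-sulfur proteins of mitochondria, was at -0.49.

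Subunits of the mitochondrial ribosome were also among these 12 genes, MRPL39, IMG1 and RSM19. MRPL39, of the large subunit, had 73.0 and 97.8 CPM with rancRNA_18, 96.8, 129.5 and 69.6 CPM with rancRNA_18-M2, and 89.3, 99.8 and 59.7 CPM with no RNA. Its log2 fold change was -0.43 (SE 0.12), and those of IMG1, also of the large subunit, and RSM19, of the small one, were -0.48 and -0.44. Both rancRNA_18 libraries lay between the extremes of the rancRNA_18-M2 group.

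The remaining 4 genes were HPA3, CUP1-2, SNZ2 and YGR161W-C. HPA3, an acetyltransferase that acts on D-amino acids, had 154 and 207 CPM with rancRNA_18 and 223, 316 and 124 CPM with rancRNA_18-M2, a log2 fold change of -0.55 (SE 0.14). CUP1-2 encodes the copper-binding metallothionein and shares its sequence with CUP1-1, so its reads cannot be assigned with certainty. It had 46.6 and 44.1 CPM with rancRNA_18 and 64.8, 63.1 and 28.9 CPM with rancRNA_18-M2. SNZ2, a vitamin B6 gene with the near-identical copy SNZ3, was at -0.49 and YGR161W-C at -0.43. All 12 genes had an adjusted p of 0.709, and in all 12 the groups overlapped.

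The 12 genes above 0 with the smallest p begin with CRM1. They were taken under the same conditions, so being higher in both replicates 1 and 2 was fixed by the choice. CRM1, the main carrier of proteins out of the nucleus, had 69.4 and 68.2 CPM with rancRNA_18, 57.0, 46.1 and 84.0 CPM with rancRNA_18-M2, and 57.0, 61.2 and 86.4 CPM with no RNA. Its log2 fold change was 0.41 (SE 0.11) with an unadjusted p of 0.0022 in edgeR's quasi-likelihood test. The 2 rancRNA_18 libraries were almost level, and they stood above replicates 1 and 2 of rancRNA_18-M2 but below its replicate 3.

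ADE13 encodes adenylosuccinate lyase, an enzyme of the pathway to AMP. It had 309 and 202 CPM with rancRNA_18, 222, 146 and 256 CPM with rancRNA_18-M2, and 185, 172 and 211 CPM with no RNA. The log2 fold change was 0.41 (SE 0.13), with differences of 0.48 in replicate 1 and 0.46 in replicate 2. PHO89, a cotransporter of sodium and phosphate at the plasma membrane, had 370.2 and 131 CPM with rancRNA_18, 247, 107 and 292 CPM with rancRNA_18-M2, and 296, 112 and 293 CPM with no RNA. For PHO89 replicate 2 was low in all 3 groups, and the 0.39 (SE 0.12) fitted for rancRNA_18 minus rancRNA_18-M2 came from a difference of 0.58 in replicate 1 and 0.29 in replicate 2.

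Among the 12 were RPA190 and IPI3, which act in ribosome production. RPA190, the largest subunit of RNA polymerase I, which transcribes ribosomal RNA, had 49.4 and 50.4 CPM with rancRNA_18 and 42.8, 32.3 and 56.3 CPM with rancRNA_18-M2, a log2 fold change of 0.37 (SE 0.12). IPI3, needed to assemble the large ribosomal subunit, had 35.7 and 25.2 CPM with rancRNA_18 and 29.2, 17.5 and 21.8 CPM with rancRNA_18-M2, a log2 fold change of 0.43 (SE 0.14). TMA64, a factor that acts on ribosomes after termination, was at 0.31 (SE 0.10). In RPA190 and TMA64 replicate 3 of rancRNA_18-M2 was among the higher libraries, while in IPI3 it was below both rancRNA_18 libraries.

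Of the rest, MET17 and MET22 belong to sulfur metabolism. MET17, which makes homocysteine from sulfide, had 129.6 and 45.6 CPM with rancRNA_18 and 106, 31.4 and 56.7 CPM with rancRNA_18-M2, a log2 fold change of 0.39 (SE 0.13). MET22, a nucleotidase that clears a by-product of sulfate assimilation, was at 0.33 (SE 0.11). The transcription factors MGA2, which drives fatty acid desaturation, PIP2, which acts in oleate response, and RSF2 were at 0.34, 0.38 and 0.38. TPH3 was at 0.36, and at -0.037 without the replicate block. All 12 had an adjusted p of 0.709 and overlapping groups. Over all genes tested, the groups did not overlap in 5.72%, with rancRNA_18 higher in 2.91% and lower in 2.81%.

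**Figure D3:**
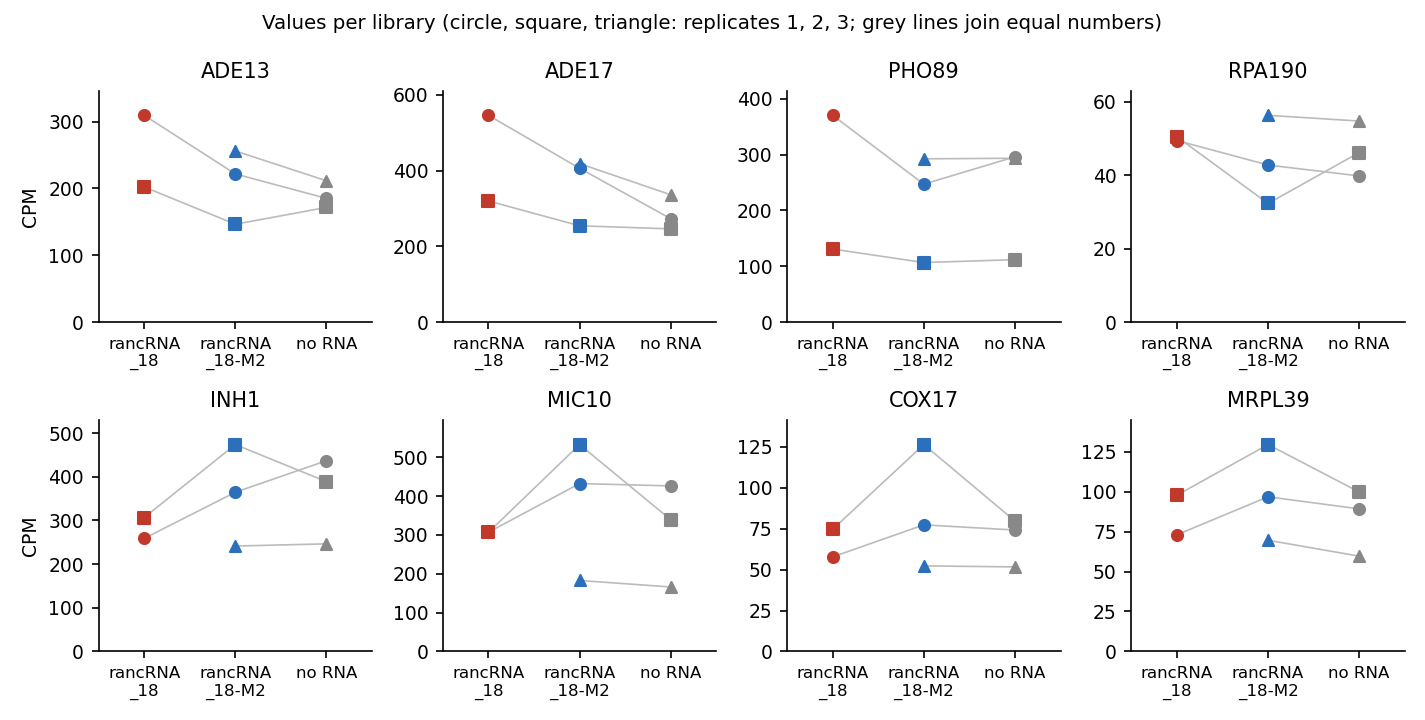
Each panel gives CPM on an axis from 0 for 1 gene, with 2 libraries with rancRNA_18, 3 with rancRNA_18-M2 and 3 with no RNA, and grey lines join libraries of the same replicate number. ADE13, ADE17, PHO89 and RPA190 are higher with rancRNA_18 than with rancRNA_18-M2 in replicates 1 and 2, and INH1, MIC10, COX17 and MRPL39 are lower. For all but ADE17, the same sign in both replicates was a condition of the choice. Over all 5 libraries the 2 groups overlap in all 8 genes. In ADE13, ADE17, PHO89 and MRPL39 they do so within replicates 1 and 2 already.

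The genes at the 2 ends differed in the length of their coding sequence. The 12 named genes above 0 had coding lengths of 1074 to 4995 bases, with a median of 1711.5, and the 12 below 0 had lengths of 186 to 897 bases, with a median of 286.5. The median over all genes tested was 1230 bases. Across 5720 genes with a coding length, the log2 fold change correlated with length with a Spearman rho of 0.492, and the separate differences did so with 0.323 in replicate 1 and 0.396 in replicate 2. This is a description across genes of the same libraries.

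The pattern ran through the whole range of lengths. Among 1153 genes of 78 to 633 bases, 24.5% were above 0 and the median log2 fold change was -0.13. At an unadjusted p under 0.05, 163 of them were below 0 and 3 above. Among 1140 genes of 2133 to 14733 bases, 86.0% were above 0, the median was 0.12, and 109 genes were above 0 and 0 below at that p. Medians of the bins between ran in order, at -0.042, 0.010 and 0.052.

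**Figure D4:**
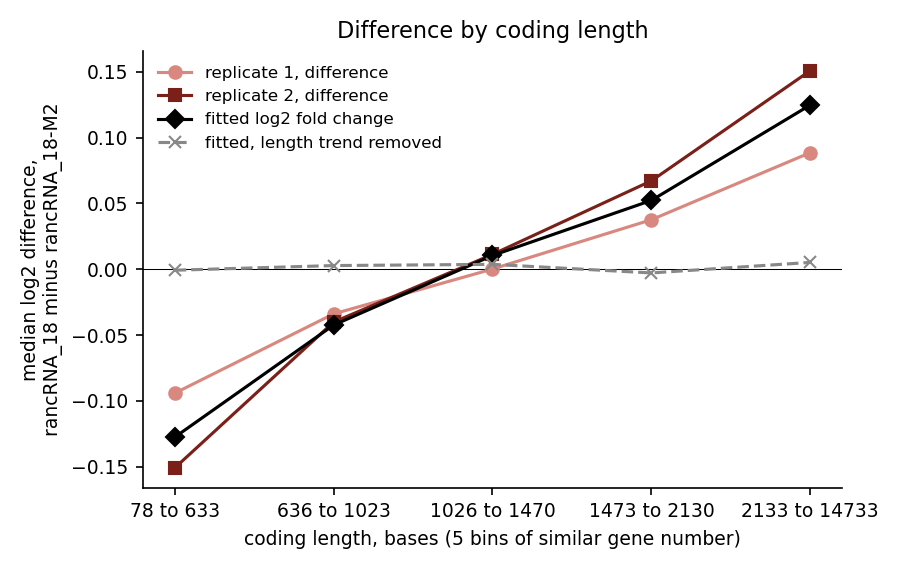
Points give the median log2 difference, rancRNA_18 minus rancRNA_18-M2, in 5 bins of coding length (bases) with 1140 to 1153 genes each, for replicate 1, replicate 2 and the fit over all libraries, and crosses give the fit after each library's trend over length was taken out. The fitted median runs upward over the bins, between -0.13 for the shortest genes and 0.12 for the longest, with the same order in both replicates.

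Single libraries also leaned on length within a group. Each library's deviation from the mean of the 8 total mRNA libraries correlated with coding length with a rho of -0.115 and 0.172 in the rancRNA_18 libraries, -0.396, -0.250 and 0.602 in the rancRNA_18-M2 libraries, and -0.556, -0.116 and 0.530 with no RNA. Within replicates 1 and 2 the rancRNA_18 value was above the rancRNA_18-M2 value, and replicate 3 was the furthest above 0 in both groups that have one. No measure of RNA integrity or fragment size is in the files, and the part of length in the differences of single genes was not tested against such a measure. With each library's trend over length taken out, an alternative chosen after seeing the data, 0 of 5720 genes were called and 197 had an unadjusted p under 0.05, 84 above 0 and 113 below. INH1 then stood at -0.41 (SE 0.12), MIC10 at -0.45, COX17 at -0.37, ADE13 at 0.38, PHO89 at 0.34 and CRM1 at 0.28. Over 4395 genes with at least 20 CPM, the differences in replicates 1 and 2 still correlated, with an r of 0.250.

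The list of cytosolic ribosomal proteins holds 138 genes, 1 of them RPP1, a subunit of RNase P that is no ribosomal protein. Of the 138, 30 were above 0, or 21.7% beside 52.9% of all genes tested, and the median log2 fold change was -0.11 beside 0.012. An unadjusted p under 0.05 was reached by 0 above 0 and 6 below 0, among them RPL37B, RPL41A, RPS14B and RPS29B. The 6 are 4.35% of the list, near the 3.74% of all genes tested. RPL37B, of the large subunit, had 1798 and 1503 CPM with rancRNA_18 and 2309.5, 2183 and 989 CPM with rancRNA_18-M2, a log2 fold change of -0.42 (SE 0.18). Many of these genes have a near-identical copy, and their single values are uncertain. The list's medians were -0.070 in replicate 1 and -0.13 in replicate 2. Their median coding length was 433.5 bases, and with the length trend removed its median was 0.0053, with 71 of 138 above 0. Its share of the reads was 24.3% and 21.5% with rancRNA_18 and 24.9%, 22.2% and 19.2% with rancRNA_18-M2.

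Lists of genes that build or serve the ribosome had medians above 0. Of 88 ribosome biogenesis genes, 64 were above 0, or 72.7% beside 52.9% of all genes tested, with a median of 0.083. At an unadjusted p under 0.05, 4 were above 0 (4.55% beside 3.11% of all genes tested) and 1 below (1.14% beside 3.74%). UTP4 and UTP22 of the small-subunit processome were at 0.40 (SE 0.14) and 0.34, and GAR1, of the box H/ACA pseudouridylation particles, was at -0.34. Of 20 aminoacyl-tRNA synthetases, which charge tRNAs, 15 were above 0 with a median of 0.13. Above 0, 3 reached that p, or 15% beside 3.11% of all genes tested. MES1, the methionyl enzyme, had 92.0 and 91.6 CPM with rancRNA_18 and 75.6, 65.9 and 115 CPM with rancRNA_18-M2, a log2 fold change of 0.34 (SE 0.13). The 2 lists had median coding lengths of 1567.5 and 1914 bases, beside 1230 over all genes tested. With the length trend removed their median log2 fold changes were 0.032 and 0.049. At an unadjusted p under 0.05, that fit had 2 biogenesis genes above 0 and 1 below, and 0 synthetases. Translation initiation and termination factors had 24 of 32 above 0 and a median of 0.075, with SUP45, the release factor that reads stop codons, at 0.28 and the recycling factor RLI1 at 0.26. Translation elongation factors had 7 of 12 above 0 and a median of 0.025, or -0.031 with the length trend removed. Their furthest member was ANB1, the form of the eIF5A factor made without oxygen, at -0.49.

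RNA polymerase I and III subunits had 11 of 20 above 0, a median of 0.054, and members at both ends. RPA190 was at 0.37 and RPA135, the other large subunit of polymerase I, at 0.20, while RPA14, a small subunit of the same enzyme, was at -0.37. tRNA modification enzymes, the class to which the deleted TRM10 belongs, had 27 of 41 above 0 and a median of 0.038. Among them TRM112, the small activating partner of several methyltransferases, had 128 and 101 CPM with rancRNA_18 and 155, 145 and 74.5 CPM with rancRNA_18-M2, a log2 fold change of -0.40 (SE 0.12), and GCD10, of the tRNA adenosine methyltransferase, was at 0.26.

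Respiratory genes were mostly below 0 in the fit. Of 46 genes of respiration and the tricarboxylic acid cycle, 5 were above 0, or 10.9% beside 52.9% of all genes tested. The median was -0.11. An unadjusted p under 0.05 was reached by 7 below 0, or 15.2% beside 3.74% of all genes tested, and by 0 above. The median coding length of the list was 618 bases, beside 1230 over all genes tested. QCR8, of the cytochrome bc1 complex, had 283 and 300.3 CPM with rancRNA_18 and 341, 489 and 155 CPM with rancRNA_18-M2, a log2 fold change of -0.46 (SE 0.14). CYC1, the main form of cytochrome c, had 96.1 and 154 CPM with rancRNA_18 and 150.5, 191 and 44.9 CPM with rancRNA_18-M2, a log2 fold change of -0.45 (SE 0.14). Replicate 3 of rancRNA_18-M2 was the lowest library for both genes, and the rancRNA_18 library was the lower one in replicates 1 and 2. QCR6 and SDH4 were at -0.36 and -0.33. Over the whole list, 23 of 46 genes had the same sign in replicates 1 and 2, beside 3671 of all 6016 genes tested. The list took 1.40% and 1.91% of the reads with rancRNA_18 and 1.60%, 1.85% and 1.63% with rancRNA_18-M2. Its share was thus lower with rancRNA_18 in replicate 1 and higher in replicate 2. The list's median was -0.19 in replicate 1 and -0.0085 in replicate 2, and with the length trend removed it was -0.050, with 17 of 46 above 0. In place of 7, 1 gene was then below 0 at an unadjusted p under 0.05.

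Mitochondrial ribosomal proteins are needed to make the respiratory subunits encoded in the mitochondrial genome. Their list was drawn up by symbol, so it holds MRP8, which is not one of them, and lacks IMG1. It had 15 of 67 above 0 and a median of -0.12. Below 0, 12 reached an unadjusted p under 0.05, or 17.9% beside 3.74% of all genes tested, and 0 above. MRPL39, MRPL19 and MRPL50 were at -0.43, -0.43 and -0.35. The medians were -0.16 in replicate 1 and -0.10 in replicate 2, and the median coding length was 699 bases. With the length trend removed the median was -0.046, 26 of 67 were above 0, and 6 below 0 had an unadjusted p under 0.05. Over all genes of that fit, 113 of 5720 were below 0 at that p. As a share of reads the list took 0.479% and 0.577% with rancRNA_18 and 0.496%, 0.595% and 0.532% with rancRNA_18-M2, lower with rancRNA_18 in replicates 1 and 2.

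Purine biosynthesis had the highest median of the 31 lists, 0.17, with 12 of 16 genes above 0. The 4 that reached an unadjusted p under 0.05 were all above 0 and were ADE13, ADE17, ADE2 and MTD1. They are 25% of the list, while 3.11% of all genes tested were above 0 at that p. ADE17, which carries out the last steps to IMP, had 546 and 320.0 CPM with rancRNA_18, 406, 255 and 419 CPM with rancRNA_18-M2, and 273, 246 and 336 CPM with no RNA. Its log2 fold change for rancRNA_18 minus rancRNA_18-M2 was 0.36 (SE 0.13). ADE2, which acts on the aminoimidazole ribotide whose build-up turns mutants red, had 367 and 222 CPM with rancRNA_18 and 264, 203 and 292 CPM with rancRNA_18-M2. MTD1, an enzyme of the one-carbon folate pool, had 172 and 75.9 CPM with rancRNA_18 and 128, 66.1 and 122 CPM with rancRNA_18-M2. ADE2 and MTD1 were at 0.31 and 0.33 in the fit.

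The purine list took 0.448% and 0.353% of the reads with rancRNA_18 and 0.367%, 0.312% and 0.432% with rancRNA_18-M2. Its medians were 0.25 in replicate 1 and 0.13 in replicate 2. With the length trend removed the median was 0.10, and again 12 of 16 were above 0 and 4 reached an unadjusted p under 0.05. Over all genes of that fit, 84 of 5720 were above 0 at that p. Leaving out any 1 of the 5 libraries gave medians of 0.11 to 0.24.

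Phosphate response genes had the next highest median, 0.15, with 12 of 17 above 0. At an unadjusted p under 0.05, 3 were above 0 (17.6% of the list beside 3.11% of all genes tested). Beside PHO89 these included VTC3, of the polyphosphate polymerase, at 0.28 (SE 0.11), and PHO84, the high-affinity phosphate transporter, at 0.26 (SE 0.11). PHO84 had 509 and 506 CPM with rancRNA_18 and 441, 400.3 and 795 CPM with rancRNA_18-M2, so replicate 3 was far above the other 4 libraries. Without the replicate block, its value was -0.10. The list's medians were 0.21 in replicate 1 and 0.068 in replicate 2, and 0.11 with the length trend removed. With that trend removed, 1 member in place of 3 was above 0 at an unadjusted p under 0.05.

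Other metabolic lists lay near 0. Amino acid biosynthesis had 38 of 57 above 0, a median of 0.041 and 5 members above 0 at an unadjusted p under 0.05. The 5 are 8.77% of the list, beside 3.11% of all genes tested. With the length trend removed, 2 members were above 0 at that p. SER3, the first enzyme of serine synthesis, had 241 and 48.4 CPM with rancRNA_18 and 157, 38.4 and 85.6 CPM with rancRNA_18-M2, a log2 fold change of 0.45 (SE 0.16). Sulfate assimilation and methionine genes had 11 of 23 above 0 and a median of -0.0041. Glycolysis and fermentation genes had 11 of 19 above 0, a median of 0.027 and members between -0.11 and 0.13, with 0 members at an unadjusted p under 0.05.

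Iron uptake genes had 14 of 24 above 0 and a median of 0.041, which was -0.030 with the length trend removed and -0.32 without the replicate block. The list took 0.473% and 0.958% of the reads with rancRNA_18 and 0.520%, 1.04% and 1.62% with rancRNA_18-M2, so replicate numbers differed more than the RNAs did. FIT3, a cell wall protein that retains iron carriers, had 939 and 2306 CPM with rancRNA_18 and 1172, 3027 and 4219.7 CPM with rancRNA_18-M2, and its log2 fold change was -0.37 (SE 0.18). In this gene the rancRNA_18 library was the lower one in both shared numbers. Galactose utilization had 5 of 8 above 0 with a median of 0.077, and its epimerase GAL10 was at 0.13. Hexose transport and invertase had 6 of 15 above 0 with a median of -0.052, and the transporter HXT2 was at 0.27. Without the replicate block GAL10 and HXT2 were at -0.081 and -0.38.

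Stress and protein folding genes showed no common direction. General stress genes had 16 of 30 above 0 and a median of 0.018, with TPS2, of trehalose synthesis, at 0.28 and SOD2, the mitochondrial superoxide dismutase, at -0.36. The list of cytosolic chaperones, which also holds the mitochondrial HSP60 and HSP10, had 11 of 24 above 0 and a median of -0.0069. HSP10, the lid of the mitochondrial chaperonin, had 422 and 450.3 CPM with rancRNA_18 and 510.3, 632 and 373 CPM with rancRNA_18-M2, at -0.36 (SE 0.12), and HSC82, an HSP90 chaperone, was at 0.28. The unfolded protein response had 8 of 14 above 0 with a median of 0.034, with the oxidase ERO1 at 0.32. Osmotic response genes had 11 of 21 above 0 and a median of 0.012, and the proteasome 23 of 35 and 0.036.

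The cell wall list, which by its symbol also took in MLP1 of the nuclear pore, had 20 of 43 above 0 and a median of -0.016. At an unadjusted p under 0.05, 1 was above 0 and 4 below. These are 2.33% and 9.30% of the list, beside 3.11% and 3.74% of all genes tested. CWP2, a major mannoprotein of the wall, had 1133 and 1864 CPM with rancRNA_18 and 1536, 2525 and 638 CPM with rancRNA_18-M2, a log2 fold change of -0.47 (SE 0.16). The mannoproteins TIP1 and CIS3 were at -0.37 and -0.35, and CHS1, a chitin synthase, was at 0.35. The fatty acid enzymes ACC1 and FAS1, which have very long coding sequences, were at 0.30 and 0.32. CHO2, which methylates phosphatidylethanolamine, had 51.5 and 42.6 CPM with rancRNA_18 and 38.9, 33.0 and 29.5 CPM with rancRNA_18-M2. Its groups did not overlap, which held for 5.72% of all genes tested, SUP45 and GCD10 among them. The log2 fold change of CHO2 was 0.35 (SE 0.16). The list of phospholipid and inositol genes had 14 of 25 above 0, a median of 0.014, and -0.024 with the length trend removed. At an unadjusted p under 0.05, 4 were above 0, or 16% of the list beside 3.11% of all genes tested. With the length trend removed, 0 were.

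The remaining lists held at most 2 members at an unadjusted p under 0.05. The vacuolar ATPase had 2 above 0, or 12.5% of its list beside 3.11% of all genes tested. With the length trend removed it had 1. Cyclins and cell division genes had 17 of 26 above 0 and a median of 0.090, secretory vesicle genes 21 of 30 and 0.061, ergosterol genes 18 of 24 and 0.033, and the vacuolar ATPase 9 of 16 and 0.027. Histones had 1 of 10 above 0 and a median of -0.11, but their median was 0.049 in replicate 1 and -0.37 in replicate 2. With the length trend removed, histones had a median of 0.027 and 6 of 10 above 0. Mating-type specific genes had 6 of 14 above 0 and a median of -0.082. The list of noncoding RNAs holds small nuclear and nucleolar RNAs beside mRNA-like transcripts such as SRG1, and 56 of its 96 members passed the filter. Their median was -0.16, with -0.041 in replicate 1 and -0.11 in replicate 2, and 26 of the 56 had the same sign in both. Leaving out any 1 of the 5 libraries gave medians of -0.33 to -0.0073. The list took only 0.015% to 0.028% of the reads in these 5 poly(A) libraries. SCR1, the RNA of the signal recognition particle, had 5.55 and 11.8 CPM with rancRNA_18 and 15.5, 17.8 and 4.93 CPM with rancRNA_18-M2.

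**Figure D5:**
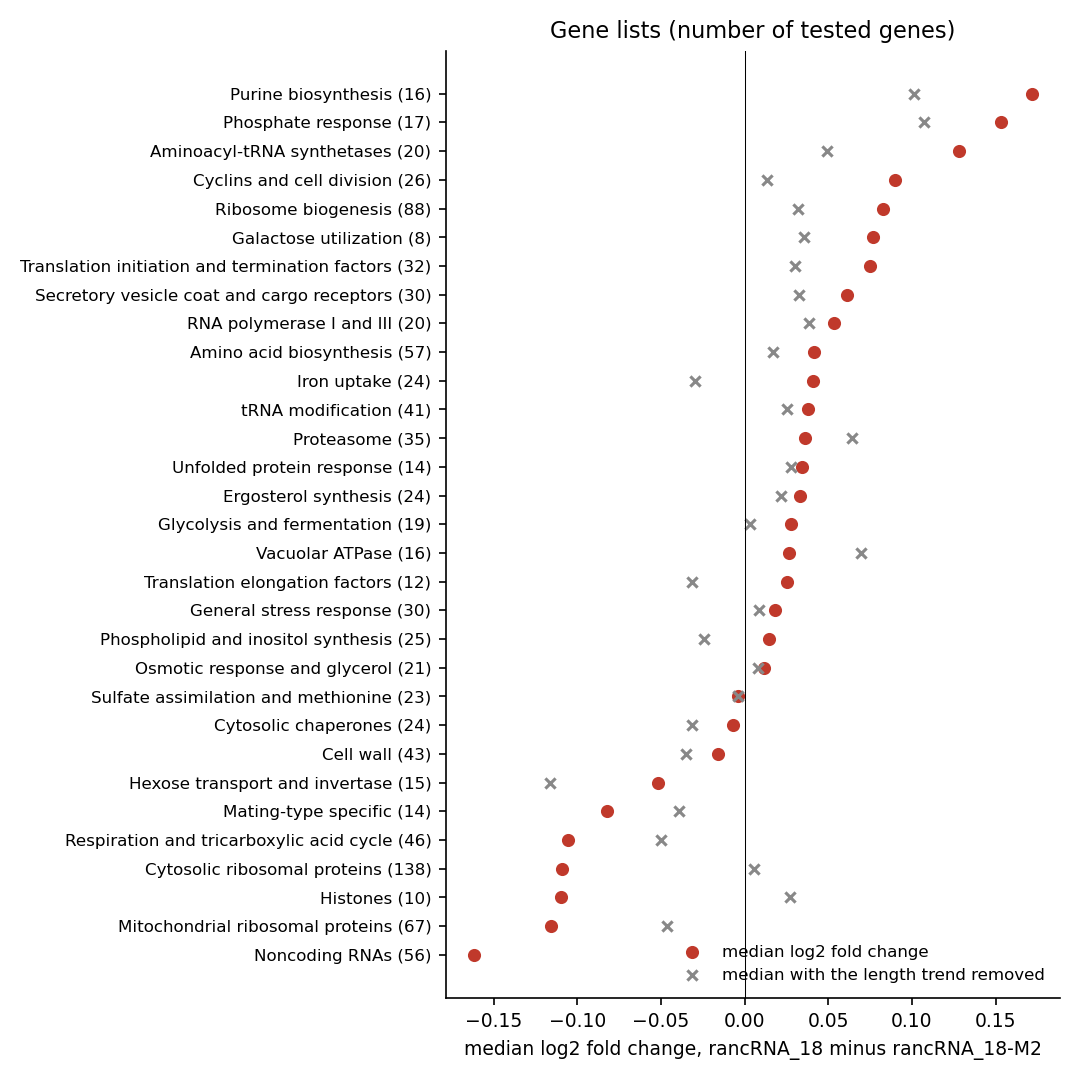
Red points give the median log2 fold change, rancRNA_18 minus rancRNA_18-M2, of the tested members of 31 gene lists, and grey crosses the median after each library's trend over coding length was taken out (no cross for noncoding RNAs). Purine biosynthesis is highest at 0.17 and keeps 0.10 without the trend, while cytosolic ribosomal proteins move to 0.0053 from -0.11.

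Both RNAs were also set beside no RNA, with the same 3 no-RNA libraries serving both comparisons. The purine list had a median log2 fold change of 0.25 for rancRNA_18 minus no RNA and 0.12 for rancRNA_18-M2 minus no RNA. Phosphate response genes had 0.16 with rancRNA_18 and -0.039 with rancRNA_18-M2, each minus no RNA. Genes of respiration and the tricarboxylic acid cycle had -0.077 with rancRNA_18 and 0.11 with rancRNA_18-M2, on opposite sides of no RNA. Mitochondrial ribosomal proteins had -0.12 with rancRNA_18 and -0.022 with rancRNA_18-M2, and cytosolic ribosomal proteins -0.16 with rancRNA_18 and -0.033 with rancRNA_18-M2. Glycolysis and fermentation genes had 0.28 with rancRNA_18 and 0.33 with rancRNA_18-M2, the furthest from 0 of these lists in both comparisons. ADE17, INH1 and MIC10 were named for their difference between rancRNA_18 and rancRNA_18-M2. The same libraries enter here, so the offsets of these genes from no RNA follow in part from that choice. ADE17 was at 0.67 (SE 0.13) for rancRNA_18 minus no RNA and 0.30 (SE 0.12) for rancRNA_18-M2 minus no RNA. INH1 was at -0.59 (SE 0.13) for rancRNA_18 minus no RNA and -0.0020 (SE 0.11) for rancRNA_18-M2 minus no RNA, while MIC10 was at -0.35 for rancRNA_18 and 0.27 for rancRNA_18-M2, each against no RNA. None of these values for ADE17, INH1 and MIC10 passed the threshold in edgeR's quasi-likelihood test, with adjusted p of 0.338, 0.338 and 0.507 for rancRNA_18 minus no RNA and 0.636, 0.997 and 0.636 for rancRNA_18-M2 minus no RNA. Coding length correlated with the log2 fold change with a rho of 0.570 for rancRNA_18 minus no RNA and 0.121 for rancRNA_18-M2 minus no RNA.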

How the data were processed

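Raw read counts per gene were deposited by the authors, 1 library per file, with no normalization. Reads were processed with FastQC, HISAT2 and featureCounts, per the submitters' processing notes. Versions, build and strand setting were not given in the sources used here. Values of overlapping and antisense genes are thus uncertain, as are those of near-identical copies. Libraries were made with a stranded poly(A) kit, per the labels' protocols. Each file holds 7126 gene IDs, of which 6048 matched RefSeq R64, used for names and coding length only. Lines without a gene name held 0 reads.

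The 2 polysomal rancRNA_18 files were equal in all 7126 genes. That library's replicate number is unknown, and it was left out. The other 14 libraries (5 groups) were fitted together, with group and replicate number as terms, so that all groups share 1 estimate of the spread (7 residual degrees of freedom; the 5 libraries alone leave 1). The test was that of edgeR 4.0.16 under R 4.3.3 (TMM scaling, filterByExpr, robust quasi-likelihood F-test, Benjamini-Hochberg adjustment over 6016 genes, threshold 0.05). CPM values are TMM-scaled, and 0.5 CPM was added before log2 differences between single libraries. Depth was 16960806 to 21962246 reads in the 5 libraries, and intervals cover 95%. DESeq2 1.42.0 was an alternative, and limma 3.58.1 was loaded with edgeR. The script was tested on simulated data.

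Replicate numbers come from the titles, which do not say what a number marks. Deviations from group means correlated in all 26 same-number pairs of libraries, with an r of 0.501 to 0.870. In the 52 other pairs r ran between -0.669 and 0.0468. Deviations within a group sum to 0, so the pairs are not independent, and the lower values follow in part from the higher ones. The numbers were used as a block by the design of the comparison, and the same-number pairs are given beside that choice.

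Genes are named by this rule: TRM10, then up to 12 per direction with the smallest p among genes of at least 20 CPM with the same sign in replicates 1 and 2, since none passed the threshold, and up to 4 members per list with the smallest p. SRG1, MTC7 and DDR48 fall outside it. The comparison, the 31 gene lists and the rule were chosen with earlier results of these data known. Lists are described by counts and medians and were not tested.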

Additional observations from a re-analysis of the deposited data

How the results depend on the processing

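The count of 0 called genes held without the replicate block (0 calls, with 4 genes in place of 412 at an unadjusted p under 0.05), in total mRNA libraries only (529), with the block set by fraction (318), with DESeq2-style size factors (410), without the filter (444), with the length trend removed (197), and without each of the 5 libraries in turn (0 to 0 calls, with 163 to 454 genes at that p). It moved to 1 in DESeq2 (INH1) and to 36 with the 5 libraries alone. That fit has 1 residual degree of freedom, and called ADE13 and SER3 above 0 and 34 genes below. Of these 34, 33 have a coding length, of 186 to 777 bases. The correlation of the differences in replicates 1 and 2 was 0.38 at 20 CPM or more, against 0.21 over all genes, and 0.213 with the other size factors. Without the replicate block, TPH3 (-0.037), PHO84 (-0.10), GAL10 (-0.081) and HXT2 (-0.38) were below 0. No other named gene changed sign in any alternative run, SRG1, MTC7 and DDR48 not included. Medians of cytosolic ribosomal proteins and of respiration were 0.046 and 0.0012 without the block, and the iron uptake median was -0.32. The causes of these differences were not tested. Of the 31 list medians, 20 had the other sign in at least 1 alternative. Purine, phosphate, synthetase, ribosome biogenesis and mitochondrial ribosome medians kept their sign in all 13 alternatives. At 20 CPM, a median SE of 0.13 limits what single genes can show.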
